A study of Mus musculus with 12 samples.

Results

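The comparison described here set naive CD4+ T cells that lack Mettl3 against wild type naive CD4+ T cells at 0 h, that is, without anti-CD3/CD28 stimulation. It used every library of the Mettl3 set at 0 h, 5 of the 12 RNA sequencing libraries in the series. These were wild type libraries 1, 2 and 3 and knockout libraries 1 and 3, and all genes of the deposited FPKM table were examined (FPKM counts sequenced fragments per kilobase of transcript, scaled to the size of the library, so levels of genes can be compared). Spleen and lymph nodes of the strain C57BL/6 were the source of the sorted cells, the knockout is labelled Mettl3-/-, and no treatment was given to either group. The age of the mice, the deleted exons and the driver of any Cre recombinase are not given in the sources used here. P-values measure only how far the libraries of the series spread within their groups. That spread may be technical, since no label ties each library to an animal of its own. By Xist and Ddx3y, transcribed from the inactive X and from the Y chromosome, wild type 1, wild type 2 and knockout 1 read as female and wild type 3 and knockout 3 as male, so each group held at least 2 animals.

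Mettl3 is the catalytic subunit of the complex that writes N6-methyladenosine (m6A) into messenger RNA as it is transcribed. Mettl14 positions the RNA for it, and Wtap, Virma, Zc3h13, Rbm15 and Cbll1 bring the catalytic pair to its targets. YTH-domain proteins read the mark, and Ythdf2 routes marked transcripts to deadenylation and decay. Naive CD4+ T cells rest in lymphoid tissue and depend on IL-7 and weak T cell receptor signals for survival. IL-7 acts through Jak1, Jak3 and Stat5, and the SOCS proteins shut that pathway down. Earlier work in naive T cells described transcripts of this family as m6A targets.

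Mettl3 itself lies on the minus strand of mouse chromosome 14, from 52294841 to 52305128 (mm10, GENCODE M21), and codes for protein. Its level was 26.7, 28.7 and 25.3 FPKM in wild type libraries 1, 2 and 3, against 5.35 FPKM in knockout library 1 and 6.45 FPKM in knockout library 3. The groups did not overlap, and the knockout libraries kept 19.9% and 24.0% of the wild type mean. Mettl3 thus fell by 2.02 on the log2(FPKM + 1) scale (SE 0.08, limma adjusted p = 4.03e-06). A value per gene does not show which exons the remaining reads come from.

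The knockout libraries differed from each other more than the wild type libraries did. Across the 12511 genes tested, Pearson's r of log2(FPKM + 1) was 0.9906 to 0.9937 among wild type libraries, 0.9773 to 0.9813 between knockout 1 and wild type, 0.9056 to 0.9206 between knockout 3 and wild type, and 0.9252 between both knockouts. Knockout 3 exceeded knockout 1 by at least 1 on the log2 scale at 813 genes, and the reverse held at 24 genes. FPKM summed to 345621 to 363901 in each of the 5 libraries, with 10716 to 11720 genes at 1 FPKM or more.

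Transcripts of other blood cells stood out in knockout 3. The summed level of 26 B cell and plasma cell markers was 359 to 406 FPKM in wild type, 419 in knockout 1 and 2813 in knockout 3. For 23 CD8, NK and gamma-delta T cell markers the sum was 54.6 to 57.2 in wild type, 93.1 in knockout 1 and 356 in knockout 3. For 27 monocyte, macrophage and dendritic cell markers it was 142 to 153, 187 and 671 in the same order. Neutrophil and granulocyte markers were close to absent elsewhere and present in knockout 3. There 19 markers summed to 757 FPKM, against 0.83 to 3.59 in wild type and 1.70 in knockout 1. Lyz2, the lysozyme of myeloid cells, measured 1.10, 1.35 and 2.42 FPKM in wild type, 0.103 in knockout 1 and 91.8 in knockout 3. The sum of 16 erythroid and platelet markers came to 26.5 to 34.6 FPKM in wild type, 14.9 in knockout 1 and 310 in knockout 3. In knockout 1, Lyz2 lay below its wild type range, and the sums of the B cell, the CD8, NK and gamma-delta and the monocyte lists were above wild type. Of the members that could be tested, 6 of 24, 13 of 19 and 5 of 22 lay above the wild type mean there. The medians were -0.19, 0.09 and -0.16, so most B cell and monocyte markers did not share the rise of the sums. Naive CD4 T cell markers were high throughout, summing to 2250 to 2546 FPKM in wild type, 2483 in knockout 1 and 2162 in knockout 3. In bulk RNA, fewer cells of a type and less RNA per cell cannot be told apart. Levels of named genes and counts of the gene lists are therefore given for both knockout libraries, and the part of the other cells' RNA in the results of knockout 3 was not tested.

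**Figure D1:**
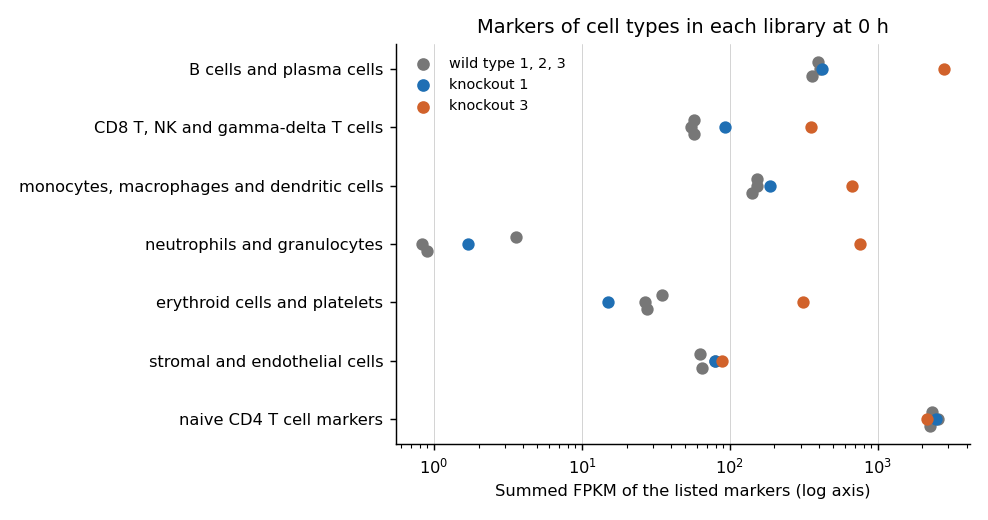
Summed FPKM (log axis) of marker genes of other cell types and of naive CD4 T cells in each of the 5 libraries, 1 point per library. Knockout 3 lies above all other libraries for B cell, myeloid, granulocyte, erythroid and CD8, NK and gamma-delta markers, with 757 FPKM of granulocyte markers against 3.59 at most in wild type, while naive CD4 markers lie between 2162 and 2546 FPKM in all 5.

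Loss of Mettl3 went with many moderate changes and few large ones. Of 12511 genes tested, 2103 rose and 1507 fell (limma adjusted p under 0.05), which is 16.8% and 12% of the genes. For 2093 of the higher and 1503 of the lower genes both knockout libraries lay outside the range of the 3 wild type libraries, 16.7% and 12% of all genes tested. The change reached 2-fold at 285 of the higher and 55 of the lower genes. The spread that these counts rest on was estimated over all 5 groups of the series. Besides the 5 libraries compared, these hold 3 wild type libraries of the Mettl3 set at 48 h and 4 libraries of the Nudt21 set. Of the same 12511 genes, 535 rose and 274 fell with the 5 libraries alone. With weights that give a less regular library less influence 748 rose and 346 fell. The median change of all genes was 0.04. It became -0.06 after quantile scaling, and the counts then turned to 1512 higher and 2537 lower, so that 37.3% of the called genes were higher in place of 58.3%. With median-ratio scaling 1773 genes were higher and 1996 lower, or 47% higher. The balance of higher and lower genes therefore depended on the scaling.

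Each knockout library was also set alone against the wild type libraries. Knockout 1 gave 1633 higher and 1071 lower genes, 13.1% and 8.56% of the genes tested, and knockout 3 gave 3054 higher and 1674 lower genes, 24.4% and 13.4%. Both libraries, each on its own, passed in the same direction at 1207 higher and 684 lower genes, 9.65% and 5.47%. Of the 2103 genes that rose, 1429 passed in knockout 1 and 1712 in knockout 3, and 168 passed in neither alone. Of the 1507 that fell, 844 passed in knockout 1, 1209 in knockout 3 and 138 in neither. The median difference of the higher genes was 0.44 in knockout 1 and 0.48 in knockout 3, and that of the lower genes -0.35 and -0.42. Counts within the gene lists below are to be read against the share of all genes that passed in the same fit.

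**Figure D2:**
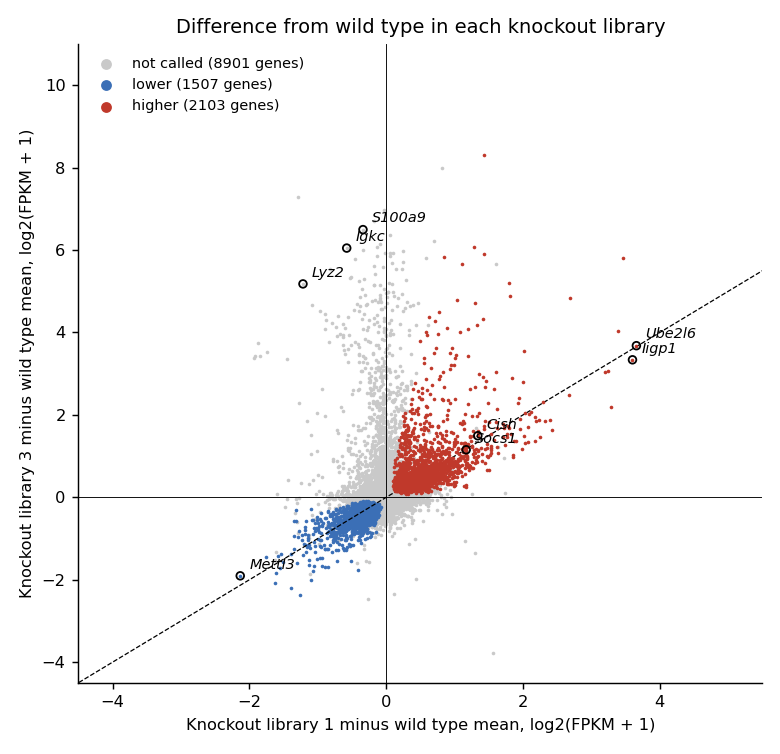
Difference from the wild type mean in knockout 1 (x axis) and knockout 3 (y axis) on the log2(FPKM + 1) scale, 1 point per gene for 12511 genes, coloured by whether the gene rose, fell or did not pass the test. A column of genes near 0 in knockout 1 and far above 0 in knockout 3 is seen, part of the 813 genes that are higher by at least 1 in knockout 3, while genes that moved in both lie along the diagonal.

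Among the signalling inhibitors of the SOCS list, Cish, Socs1 and Socs3 rose while most members did not pass the test. Of 15 SOCS family members and other JAK-STAT inhibitors, 5 rose (Cish, Socs1, Socs3, Usp18 and Socs2), 2 fell (Pias2 and Ptpn6) and 8 did not pass. Each knockout alone gave 4 higher and 2 lower. The background over all genes was 16.8% higher and 12% lower. The median of the list was 0.07 (0.03 in knockout 1 and 0.10 in knockout 3) and turned to -0.07 after quantile scaling, with the same counts. The fit of the 5 libraries alone had 3 higher and 2 lower. Socs2, Usp18 and Ptpn6 were outside the genes named by rule and are named after their values were seen.

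Promoter sequences of the genes that carry this result, and of 2 of the interferon-inducible genes described further on, are shown because their products lie in the same cytokine pathways. They come from RefSeq (GRCm38.p6), written 5′ to 3′ along the gene, with matches to TTCNNNGAA (the STAT motif) or GAAANNGAAA (the interferon-stimulated response element), on either strand, in capitals. The Socs1 stretch is chr16:10785562-10785661, minus strand, from 125 to 26 bases before the start site, with 2 overlapping interferon elements. The Socs3 stretch is chr11:117969467-117969566, minus strand, with 1 STAT motif from 154 to 146 bases before the start. The Cish stretch is chr9:107296654-107296683, plus strand, from 5 bases before the RefSeq start site to base 25 of the transcript. Its 2 STAT motifs lie within bases 1 to 20 of the transcript, while the motifs of the other stretches lie before the start. The Gbp2 stretch is chr3:142620559-142620658, plus strand, with 1 interferon element on the other strand, and the Gbp3 stretch is chr3:142559957-142560043, plus strand, with 2 overlapping ones. Gene positions given elsewhere are the outer bounds in GENCODE M21, another annotation, and the RefSeq start sites of Socs3, Cish, Gbp2 and Gbp3 lie inside those bounds. A match is a description of the letters and not a measured site. Gbp2 and Gbp3 were among the genes named by the rule for large changes. Socs1, Socs3 and Cish were added after their values were seen. Only promoters with at least 1 match were printed, so a match in each stretch was fixed by that choice.
Socs1: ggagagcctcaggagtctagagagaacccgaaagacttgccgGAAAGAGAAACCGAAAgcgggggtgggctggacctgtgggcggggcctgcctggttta
Socs3: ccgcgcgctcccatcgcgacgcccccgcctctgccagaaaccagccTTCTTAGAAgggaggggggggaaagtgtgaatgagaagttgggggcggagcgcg
Cish: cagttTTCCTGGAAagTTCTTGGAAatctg
Gbp2: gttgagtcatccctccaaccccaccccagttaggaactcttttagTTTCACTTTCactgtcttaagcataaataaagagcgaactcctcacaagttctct
Gbp3: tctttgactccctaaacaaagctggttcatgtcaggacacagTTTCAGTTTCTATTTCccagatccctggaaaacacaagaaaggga

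Among 27025 genes with a RefSeq promoter (250 bases before to 50 bases after the start), 9.55% held the STAT motif and 3.99% the interferon element. Of the genes tested that had a promoter sequence, 8.46% and 3.99% did. Among higher genes the shares were 10.0% and 6.25% of 1633, and among lower genes 6.21% and 2.54% of 1063. Interferon-inducible GTPases held the interferon element in 9 of the 10 with a sequence and the STAT motif in 6. In the SOCS list the STAT motif was found in 2 (Socs3 and Cish) and the interferon element in 1 (Socs1) of the 7 genes with a sequence. Of the 15 largest increases 11 had a sequence, and 2 of these held the interferon element and 1 the STAT motif.

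Cish binds activated cytokine receptors and blocks Stat5 docking (chromosome 9, 107296026 to 107302784). It measured 9.24, 8.35 and 9.11 FPKM in wild type libraries 1, 2 and 3, 24.0 in knockout 1 and 26.9 in knockout 3. All wild type values lay close together and well below both knockouts. Cish rose by 1.42 on the log2(FPKM + 1) scale (SE 0.11, limma adjusted p = 7.28e-05). Socs1 inhibits JAK kinases downstream of interferon and common gamma chain receptors (chromosome 16, 10782240 to 10785536). It measured 16.9, 14.9 and 19.8 FPKM in wild type against 39.7 and 39.2 FPKM in knockouts 1 and 3. The knockout values were nearly equal and both above every wild type library, a rise of 1.16 (SE 0.10, limma adjusted p = 9.76e-05). Socs3, which restrains signalling through gp130 (chromosome 11, 117966079 to 117970047), measured 58.8, 53 and 80.4 FPKM in wild type against 167 and 147 FPKM in the knockouts. Wild type 3 was the highest of its group and still lay well below the knockouts, and Socs3 rose by 1.30 (SE 0.20, limma adjusted p = 0.00158). Pias2, a SUMO ligase that can restrain STAT factors, fell from 20.8, 20.9 and 20.6 FPKM to 15.4 and 14.4 FPKM (limma adjusted p = 0.00122). Ptpn6, the phosphatase SHP-1, fell from 135, 113 and 133 FPKM to 77.8 and 90.9 FPKM (limma adjusted p = 0.0024).

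**Figure D3:**
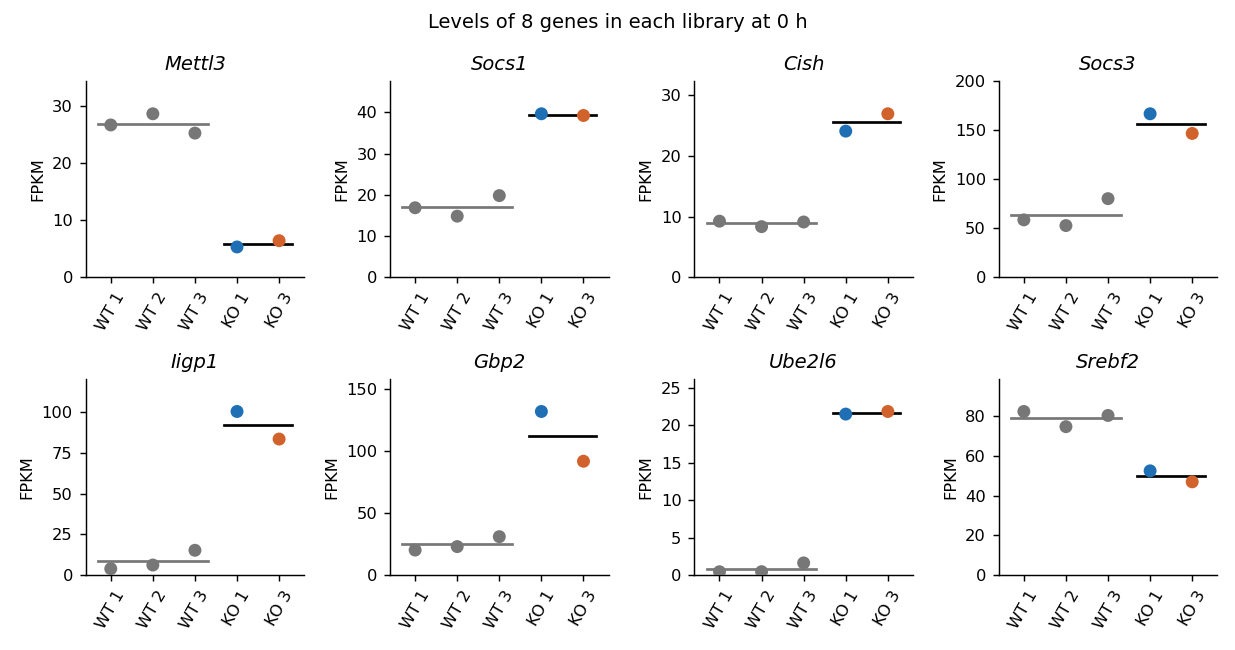
FPKM of 8 genes (Mettl3, Socs1, Cish, Socs3, Iigp1, Gbp2, Ube2l6 and Srebf2) in wild type libraries 1, 2 and 3 and knockout libraries 1 and 3, 1 point per library with a line at each group mean, each panel with its own linear axis. In every panel the knockout points lie on 1 side of all wild type points, below them for Mettl3 (5.35 and 6.45 against 25.3 to 28.7 FPKM) and Srebf2 and above them for the other 6 genes. The same separation held at 2093 of the 2103 higher and 1503 of the 1507 lower genes, and the rule for large changes required it.

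Cytokine receptors changed unevenly. Of 23 receptor chains tested, 10 rose and 3 fell, with a median of 0.34 (0.29 in knockout 1 and 0.47 in knockout 3). Knockout 1 alone gave 9 higher and 2 lower, and knockout 3 alone 12 and 3. With the 5 libraries alone 7 rose. Il4ra, the IL-4 receptor chain, measured 76.6, 76.1 and 82.8 FPKM in wild type against 173 and 186 FPKM in the knockouts, a rise of 1.18 (SE 0.08, limma adjusted p = 2.86e-05). The knockout values lay far outside the narrow wild type range. Ifngr1, the ligand-binding chain of the interferon gamma receptor, rose from 53.8, 44.0 and 51.4 FPKM to 85.8 and 90.9 FPKM (limma adjusted p = 0.000655). Ifnar2 of the type I interferon receptor rose from 18.8, 20.6 and 20.8 FPKM to 26.2 and 28.9 FPKM (limma adjusted p = 0.00166). Il12rb1, shared by the IL-12 and IL-23 receptors, rose from 1.03, 1.30 and 1.44 FPKM to 4.73 and 8.36 FPKM (limma adjusted p = 0.000487). Il7r, the IL-7 receptor chain that marks resting T cells, did not pass the test. Its level was 192, 168 and 132 FPKM in wild type, 249 in knockout 1 and 169 in knockout 3, so that knockout 1 lay above and knockout 3 within the wild type range (change 0.34, SE 0.24, limma adjusted p = 0.305).

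Among 11 JAK kinases and STAT factors, 4 rose and 3 fell (3 and 1 with knockout 1 alone, 3 and 3 with knockout 3 alone), and 2 and 1 did so with the 5 libraries alone. With both knockouts fitted together, the 4 and 3 genes were 36.4% and 27.3% of the list, against 16.8% and 12% of all genes tested. Stat2, a partner in the interferon-stimulated gene factor, measured 25.7, 24.3 and 25.9 FPKM in wild type against 62.8 and 50.7 FPKM in the knockouts. It rose by 1.13 (SE 0.10, limma adjusted p = 0.000126), and both knockouts lay far above a tight wild type group. Jak1 fell from 204, 203 and 197 FPKM to 157 and 159 FPKM, a change of -0.35 (SE 0.05, limma adjusted p = 0.000801). Of 10 IRF factors 6 rose and 1 fell (5 and 1 with knockout 1 alone, 5 and 2 with knockout 3 alone), and 3 and 1 did so with the 5 libraries alone. The 6 and 1 IRF factors of the joint fit were 60% and 10% of that list. Irf4, a factor of T cell activation, rose from 3.77, 3.35 and 3.50 FPKM to 9.56 and 11.6 FPKM (limma adjusted p = 8.95e-05). Irf7, the amplifier of type I interferon responses, rose from 39.0, 41.2 and 46.3 FPKM to 98.0 and 71.1 FPKM (limma adjusted p = 0.0112, and 0.104 with library weights).

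Interferon-inducible GTPases moved together. All 17 members tested rose, with a median of 1.63 (1.76 in knockout 1 and 1.46 in knockout 3) against 0.04 over all genes. These proteins assemble on membranes of intracellular pathogens. Of the 17, all passed with knockout 1 alone, with knockout 3 alone 16, with the 5 libraries alone 16 and with library weights 12. Both knockouts lay above every wild type library at all 17 genes, as they did at 27.4% of all genes tested, called or not. Knockout 1 was the higher of the pair at 16 of the 17 genes, and wild type 3 was the highest wild type library at 15. The other 3 of the 20 listed members were not matched to the table.

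Iigp1, a p47 GTPase, measured 3.96 FPKM in wild type 1, 6.23 in wild type 2, 15.3 in wild type 3, 100.4 in knockout 1 and 83.5 in knockout 3. The wild type libraries spread widely and the knockouts lay above all of them, a rise of 3.47 (SE 0.56, limma adjusted p = 0.0021). Gvin1, a giant GTPase, rose by 3.12 (SE 0.33) from 12.2, 15.6 and 30.7 FPKM to 173 and 157 FPKM (limma adjusted p = 0.000293). Gbp2, a guanylate-binding protein (chromosome 3, 142620602 to 142638008), measured 20.2, 23 and 31.0 FPKM in wild type against 132 and 91.6 FPKM in the knockouts (change 2.13, SE 0.21, limma adjusted p = 0.000221). Its neighbour Gbp3 (chromosome 3, 142560026 to 142573209) rose from 2.38, 3.12 and 4.76 FPKM to 20.0 and 20.6 FPKM (limma adjusted p = 0.000174). Igtp and Ifi47 of the p47 group started higher. Igtp rose from 58.5, 72.9 and 88.8 FPKM to 306 and 238 FPKM (limma adjusted p = 0.000265), and Ifi47 from 97.7, 95.1 and 124 FPKM to 291 and 260.1 FPKM (limma adjusted p = 0.000243). Members of these families share sequence, and how the authors' counting split reads between near-identical copies is not given in the sources used here.

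Of 31 genes of the ISG15 system and of antiviral effectors, 22 rose, with a median of 0.74 (0.86 in knockout 1 and 0.63 in knockout 3). In knockout 1 alone 24 passed, in knockout 3 alone 16, with the 5 libraries alone 11 and with library weights 9. Ube2l6, the conjugating enzyme that attaches ISG15 to proteins (chromosome 2, 84798828 to 84810335), was close to silent in wild type. It measured 0.462, 0.469 and 1.64 FPKM there and 21.5 and 21.8 FPKM in the knockouts, a rise of 3.67 (SE 0.27, limma adjusted p = 7e-05). Both knockouts gave almost the same value. Parp9 and its partner Dtx3l, a ubiquitin ligase pair, rose together. Parp9 rose from 22.8, 24.0 and 28.2 FPKM to 53.9 and 47.4 FPKM (limma adjusted p = 0.000489), and Dtx3l from 27.0, 26.1 and 33.3 FPKM to 65.1 and 53.2 FPKM (limma adjusted p = 0.000867). Zbp1, a sensor of Z-form nucleic acids, rose from 47.7, 54.8 and 58.2 FPKM to 135 and 97.7 FPKM (limma adjusted p = 0.0017). Wild type 3 was the highest wild type library at 24 of the 31 genes and knockout 1 the higher knockout at 28. Wild type 3 and knockout 3 read as male and the others as female. With sex as a covariate 21 of the 31 and all 17 GTPases rose. The covariate fits the same shift in both groups, whereas the male library was mostly the highest wild type but the lower knockout. It cannot take up such a pattern, and the part of sex was not tested.

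Of 24 sensors of nucleic acids tested (29 listed) 12 rose and 1 fell, with a median of 0.49 (0.40 in knockout 1 and 0.42 in knockout 3). Knockout 1 alone gave 10 higher and 1 lower, and knockout 3 alone 13 higher. The fit of the 5 libraries alone had 7 higher. Oasl2, of the oligoadenylate synthetase family, measured 5.42, 5.77 and 8.29 FPKM in wild type, 38.8 in knockout 1 and 22.1 in knockout 3 (change 2.04, SE 0.25, limma adjusted p = 0.000629). Oas1a of the same family rose from 5.67, 6.81 and 7.63 FPKM to 16.0 and 18.1 FPKM (limma adjusted p = 0.000414). Outside the list, Trex1, the exonuclease that degrades cytosolic DNA, rose from 0.399, 0.119 and 0.640 FPKM to 12.3 in knockout 1 and 5.24 in knockout 3 (limma adjusted p = 0.00441, and 0.102 with library weights). For Oasl2 and Oas1a every wild type value lay below both knockout values. For Trex1 that separation was part of the rule that named it.

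Most genes of antigen presentation by MHC class I rose in small steps. Of 23 genes 17 rose, with a median of 0.46 (0.58 in knockout 1 and 0.40 in knockout 3). With knockout 1 alone 16 rose, with knockout 3 alone 13 and with the 5 libraries alone 8. Both knockouts were above every wild type library at 21 of the 23, against 27.4% of all genes tested. The non-classical molecule H2-M3, which presents formylated peptides, rose from 21.9, 24.9 and 23.4 FPKM to 45.9 and 36.2 FPKM (limma adjusted p = 0.000807). Tap2, a subunit of the peptide transporter, rose from 97.3, 93.8 and 96.3 FPKM to 167 and 132 FPKM (limma adjusted p = 0.00201). The immunoproteasome subunit Psmb8 rose from 139, 150.4 and 155 FPKM to 230.0 and 204 FPKM (limma adjusted p = 0.00126). Outside the list, H2-DMa, which loads MHC class II and is abundant in B cells, rose from 10.8, 12.2 and 19.1 FPKM to 57.3 and 101 FPKM (limma adjusted p = 0.000323). The sum of B cell and plasma cell markers was 406 FPKM at most in wild type, 419 in knockout 1 and 2813 in knockout 3. The part of B cell RNA in the rise of H2-DMa was not tested.

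The other m6A genes tested changed by less than Mettl3. Of 9 writer complex genes 4 rose and Mettl3 fell. Besides Mettl3, 3 passed in each knockout alone, all higher, and with the 5 libraries alone 1 rose. Wtap, the adaptor of the complex, measured 59.5, 57.2 and 61.1 FPKM in wild type against 79.4 and 83.6 FPKM in the knockouts (change 0.45, SE 0.05, limma adjusted p = 0.000485). Cbll1 rose from 6.19, 6.52 and 7.22 FPKM to 9.26 and 9.46 FPKM (limma adjusted p = 0.00249, and 0.0574 with the 5 libraries alone). Mettl14, the partner of Mettl3, did not pass the test. It measured 7.97, 8.75 and 9.003 FPKM in wild type against 8.42 and 8.55 FPKM in the knockouts, inside the wild type range (change -0.01, SE 0.07, limma adjusted p = 0.911). Of 14 readers and erasers 12 could be tested, of which 2 rose and 1 fell (2 and 0 with knockout 1 alone, 2 and 1 with knockout 3 alone). With both knockouts fitted together these shares were 16.7% and 8.33%, near the 16.8% and 12% of all genes tested. Ythdf2, the reader that recruits the deadenylase complex, rose from 13.9, 12.7 and 14.9 FPKM to 21.6 and 26.2 FPKM. The rise was 0.74 (SE 0.09, limma adjusted p = 0.000616), with every knockout value above every wild type value. The demethylase Alkbh5, named after its values were seen, did not pass the test, with 31.5, 24.5 and 31.4 FPKM in wild type against 33.6 and 30.5 FPKM in the knockouts (limma adjusted p = 0.305).

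Genes for and against cell survival were among those that rose. In the Bcl2 family 6 of the 16 tested (18 listed) rose, with a median of 0.35 (0.10 in knockout 1 and 0.39 in knockout 3). With knockout 1 alone 4 rose, with knockout 3 alone 9 and with the 5 libraries alone 2. Bcl2, the survival factor of resting lymphocytes, measured 36.7, 30.9 and 37.7 FPKM in wild type against 70.8 and 62.6 FPKM in the knockouts, a rise of 0.91 (SE 0.09, limma adjusted p = 0.000209). Pmaip1 (Noxa), which opposes Mcl1, rose from 0.863, 0.595 and 0.698 FPKM to 2.81 and 5.96 FPKM (limma adjusted p = 0.000966). Of 23 caspases, death receptors and their adaptors 9 rose and 1 fell (8 and 0 with knockout 1 alone, 11 and 1 with knockout 3 alone), and 3 rose with the 5 libraries alone. With both knockouts fitted together, the 9 and 1 genes were 39.1% and 4.35% of this list, against 16.8% and 12% of all genes tested. Fadd rose from 3.45, 4.26 and 4.16 FPKM to 6.42 and 6.74 FPKM (limma adjusted p = 0.000896), and the necroptosis kinase Ripk3 from 18.9, 19.3 and 17.7 FPKM to 25.7 and 29.8 FPKM (limma adjusted p = 0.00129). Of 30 targets of p53 28 could be tested, of which 9 rose and 4 fell (6 and 3 with knockout 1 alone, 8 and 5 with knockout 3 alone), and 4 and 2 did so with the 5 libraries alone. With both knockouts fitted together, the 9 and 4 targets were 32.1% and 14.3% of those tested. The lower share was near the 12% of all genes, of which 16.8% rose. Phlda3, an inhibitor of Akt, measured 0.255, 0.589 and 0.456 FPKM in wild type against 4.56 and 4.35 FPKM in the knockouts (change 1.93, SE 0.15, limma adjusted p = 8.95e-05). The cell cycle inhibitor Cdkn1a rose from 0.346, 0.145 and 0.243 FPKM to 2.72 and 6.71 FPKM (limma adjusted p = 0.000566).

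Several of the largest increases, ranked by the smaller of the differences in both knockouts, lay outside these lists. Gadd45g, a stress-induced gene, measured 5.35, 4.92 and 4.52 FPKM in wild type against 24.8 and 23.8 FPKM in the knockouts (change 2.10, SE 0.12, limma adjusted p = 2.04e-05). Tstd1, with a rhodanese-like domain, rose from 2.36, 2.54 and 1.71 FPKM to 12.5 and 12 FPKM (limma adjusted p = 2.04e-05). Cacnb3, a calcium channel subunit, rose from 2.05, 2.33 and 3.13 FPKM to 12.2 and 15.9 FPKM (limma adjusted p = 0.000105). The knockout libraries were alike for these 3. They were unlike for Plac8, which measured 1.47, 1.37 and 2.03 FPKM in wild type, 27.8 in knockout 1 and 144 in knockout 3 (limma adjusted p = 0.000351). The transcription factor Bhlhe40 measured 1.48, 1.42 and 1.04 FPKM in wild type, 8.34 in knockout 1 and 26.2 in knockout 3 (limma adjusted p = 0.000494). Ly6a rose from 53.7, 62.7 and 93.0 FPKM to 311 and 264 FPKM, but its limma adjusted p was 0.0461 and was 0.097 with either knockout library left out.

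The largest decreases were ranked by the smaller of the differences in both knockout libraries, so that a fall in both was part of their choice. Dennd2d, a regulator of Rab GTPases, measured 118, 119 and 120.4 FPKM in wild type against 52.4 and 53.1 FPKM in the knockouts (change -1.16, SE 0.05, limma adjusted p = 4.03e-06). Both groups were tight and far apart. Ampd1, AMP deaminase of the purine nucleotide cycle, fell by 1.72 (SE 0.14) from 11.5, 12.4 and 8.18 FPKM to 2.76 and 2.25 FPKM (limma adjusted p = 9.76e-05). Rgcc, a regulator of the cell cycle, fell by 1.64 (SE 0.13) from 55.6, 60.6 and 42.0 FPKM to 17.0 and 15.2 FPKM (limma adjusted p = 9.04e-05). Rgs11, which speeds the turn-off of G proteins, fell by 1.55 (SE 0.13) from 21.2, 19.5 and 15.3 FPKM to 5.84 and 5.53 FPKM (limma adjusted p = 0.000101). Izumo1r, the folate receptor 4 of T cells, fell by 1.60 (SE 0.12) from 73.4, 77.8 and 60.3 FPKM to 20.1 and 25.0 FPKM (limma adjusted p = 6.74e-05). In each of these 5 genes the lowest wild type library was more than 2-fold above the highest knockout library.

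Nearly as many genes of the T cell receptor complex and its coreceptors fell as did not pass the test. Of 28 tested 13 fell, 15 did not pass and none rose by limma (18 lower and 0 higher at an unadjusted p under 0.05), with a median of -0.23 (-0.25 in knockout 1 and -0.24 in knockout 3). With knockout 1 alone 13 fell, with knockout 3 alone 12 fell and 1 rose, and with the 5 libraries alone 4 fell. After either other scaling 17 fell. Cd6, an adhesion receptor that tunes T cell receptor signals, measured 165, 201 and 165 FPKM in wild type against 105 and 85.0 FPKM in the knockouts (change -0.89, SE 0.11, limma adjusted p = 0.000641). Its relative Cd5, whose level follows the strength of tonic signalling, fell by 0.70 (SE 0.10) from 204, 245 and 192 FPKM to 142 and 121 FPKM (limma adjusted p = 0.00157). All knockout values of both genes were below all wild type values. The kinase Fyn fell from 141, 128 and 128 FPKM to 93.9 and 99.9 FPKM (limma adjusted p = 0.000633).

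Immediate-early genes, which follow receptor signals within minutes, fell in part. Of 26 tested 8 fell and none rose by limma (11 lower and 1 higher at an unadjusted p under 0.05), with a median of -0.18. With the 5 libraries alone no gene of the list passed, and with library weights 1 fell. With knockout 1 alone 7 fell and 1 rose, and with knockout 3 alone 9 fell and 4 rose. Nr4a1, a nuclear receptor induced by T cell receptor signals, measured 182, 170.3 and 119.5 FPKM in wild type against 87.3 and 80.9 FPKM in the knockouts (change -0.87, SE 0.15, limma adjusted p = 0.00267, and 0.0576 with the 5 libraries alone). The wild type values were wide apart but above both knockouts. Outside the list, Cd40lg, the helper ligand for B cells, fell from 79.4, 85.5 and 70.9 FPKM to 48.0 and 35.5 FPKM (limma adjusted p = 0.000731). The AP-1 factor Batf moved the other way, from 21.6, 20.7 and 24.9 FPKM to 46.1 and 39.5 FPKM (limma adjusted p = 0.000265).

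The T cell receptor alpha locus, on chromosome 14 beside Mettl3, gave lower values over its V, J and constant segments. This grouping was chosen after the values were seen and is a description. Of 106 variable (Trav) segments tested 54 fell, with a median of -0.42 and the same -0.41 in each knockout library. Of 51 joining (Traj) segments 20 fell, with a median of -0.84 (-0.52 in knockout 1 and -1.03 in knockout 3). No segment of either kind rose by limma (2 Trav and 0 Traj segments were higher at an unadjusted p under 0.05). With the 5 libraries alone 7 Trav and 8 Traj segments fell. The constant segment Trac measured 627, 794 and 609.8 FPKM in wild type against 492 and 488 FPKM in the knockouts (change -0.45, SE 0.11, limma adjusted p = 0.0164), and the limma adjusted p was 0.0568 without knockout 3, 0.124 with the 5 libraries alone and 0.136 with library weights.

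On the log2(FPKM + 1) scale, the median change of the joining segments was lower for those nearer to the constant segment. Among the 26 Traj segments nearer to Trac 14 fell with a median of -1.03, and among the 25 farther ones 6 fell with a median of -0.39. The nearer segments gave -0.73 in knockout 1 and -1.34 in knockout 3, and the farther ones -0.39 and -0.37. The farther segments had lower levels, and this scale understates changes of low genes. Their median level was 4.85, 4.34 and 3.62 FPKM in wild type and 1.92 FPKM in each knockout. For the nearer segments it was 17.9, 13.7 and 16.1 FPKM in wild type, 8.27 in knockout 1 and 5.12 in knockout 3. The part of the level in the difference was not tested. Traj2 measured 34.6, 35.9 and 29.0 FPKM in wild type against 19.5 and 13 FPKM in the knockouts (change -1.01, limma adjusted p = 0.00276). Traj9 measured 20.6, 10.1 and 19.7 FPKM in wild type against 7.23 and 4.38 FPKM in the knockouts (change -1.36, limma adjusted p = 0.0076, and 0.0795 with the 5 libraries alone). In the Nudt21 knockout of the series the medians of the same segments were -0.37 for the nearer and 0.53 for the farther ones, so the nearer segments were the lower ones there too. The difference between the nearer and farther segments was not tested in either knockout.

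The beta chain locus lies on another chromosome. Of 22 Trbv segments 5 fell, with a median of -0.08, and of 13 Trbj segments 6 fell, with a median of -0.33, all of them in the Trbj1 cluster. For Trbj, 3 segments fell with knockout 1 alone (median -0.13) and all 13 with knockout 3 alone (median -0.53), and none passed with the 5 libraries alone. For Trbv, 2 fell with knockout 1 alone and 7 with knockout 3 alone. The difference between the alpha and beta loci was not tested. Neither Trbc gene passed the test. Of 41 other genes of chromosome 14 within 1 Mb of Mettl3 and the alpha segments, 10 rose and 8 fell, with a median of -0.03. Of all genes tested 16.8% rose and 12% fell. Segments are short, families share sequence, and rearranged transcripts, unspliced RNA and germline transcription cannot be told apart in FPKM per segment.

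**Figure D4:**
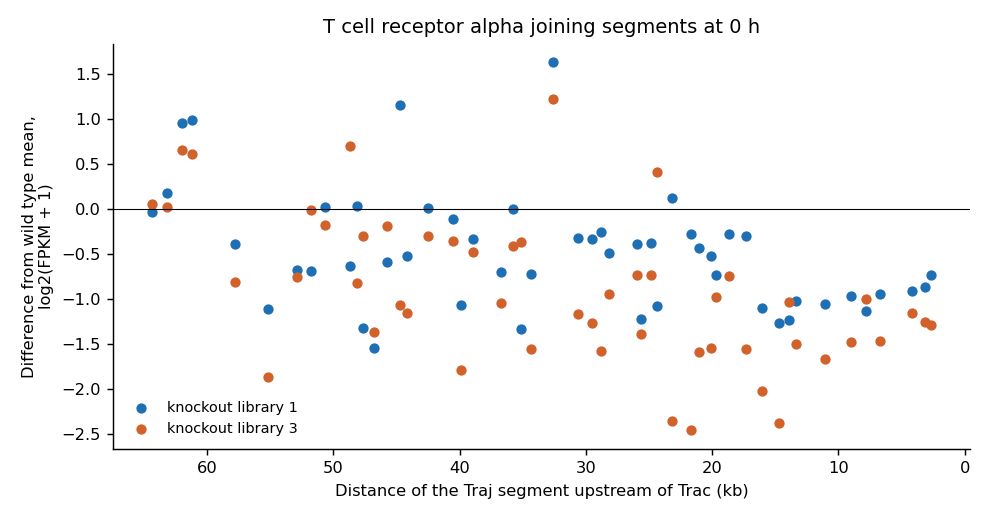
Difference from the wild type mean (log2(FPKM + 1) scale) of 51 Traj segments against their distance upstream of Trac in kb, for knockout 1 and knockout 3, 1 point per segment and library. Segments nearer to Trac lie lower, with medians of -0.73 in knockout 1 and -1.34 in knockout 3 against -0.39 and -0.37 for the farther 25 segments. The farther segments had lower FPKM in wild type, and the scale understates changes of low genes.

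The median over genes of lipid synthesis was below 0. Of 33 genes of cholesterol and fatty acid synthesis 10 fell and 1 rose, with a median of -0.14 (-0.22 in knockout 1 and -0.08 in knockout 3). Knockout 1 alone gave 11 lower and 1 higher, with knockout 3 alone 5 fell and 4 rose, and with the 5 libraries alone 1 fell and 1 rose. Srebf2, the transcription factor that drives sterol synthesis (chromosome 15, 82147181 to 82205379), measured 82.2, 74.6 and 80.2 FPKM in wild type against 52.4 and 46.9 FPKM in the knockouts. It fell by 0.66 (SE 0.07, limma adjusted p = 0.000341), with a clear gap between the groups. Insig1, which holds the pathway back when sterols are plentiful and is itself a target of Srebf2, fell from 27.3, 20.6 and 20.1 FPKM to 13.4 and 14.1 FPKM (limma adjusted p = 0.00562). It did not pass with the 5 libraries alone (limma adjusted p = 0.0568). Ebp, a sterol isomerase, was the exception and rose from 16.7, 15.8 and 18.8 FPKM to 24.5 and 27.4 FPKM (limma adjusted p = 0.00189).

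The series title names mTOR signalling, and the mTOR genes showed no common direction. Of 53 mTOR complex genes and upstream regulators 9 rose and 6 fell (7 and 5 with knockout 1 alone, 11 and 7 with knockout 3 alone), with a median of 0.04, and after quantile scaling 7 rose and 10 fell. With both knockouts fitted together and no scaling, the 9 and 6 genes were 17.0% and 11.3% of the list. These shares lay near the 16.8% and 12% of all genes tested. Fitted on the 5 libraries alone, 2 rose and 2 fell. Mtor itself measured 10.5, 10.1 and 10.5 FPKM in wild type against 10.8 and 9.30 FPKM in the knockouts and did not pass (change -0.04, SE 0.07, limma adjusted p = 0.677). The arginine sensor Castor1, which restrains mTORC1, rose from 8.66, 12 and 11.3 FPKM to 20.2 and 18.2 FPKM (limma adjusted p = 0.00158). Tsc2, part of the brake on mTORC1, fell from 19.4, 18.7 and 18.7 FPKM to 15.8 and 14.9 FPKM (limma adjusted p = 0.00203, and 0.0599 with the 5 libraries alone), and the stress-induced Sesn1 fell from 38.3, 42.0 and 33.7 FPKM to 23.5 and 22.8 FPKM (limma adjusted p = 0.00194, and 0.0545 with library weights). Rragd, a Rag GTPase that brings mTORC1 to lysosomes, rose from 0.757, 0.794 and 1.33 FPKM to 3.12 and 5.84 FPKM (limma adjusted p = 0.00136).

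Genes of protein and energy supply moved in small steps. In ribosome biogenesis 11 of 42 genes rose and 2 fell, with a median of 0.12 (9 and 1 with knockout 1 alone, 9 and 2 with knockout 3 alone), and 5 rose and 1 fell with the 5 libraries alone. The nucleolar protein Ncl rose from 63.1, 63.4 and 69.6 FPKM to 92.4 and 100.3 FPKM (limma adjusted p = 0.000345), and the RNA acetyltransferase Nat10 fell from 21.9, 20.7 and 20.6 FPKM to 16.5 and 16.6 FPKM (limma adjusted p = 0.0012). Of 50 nuclear genes of oxidative phosphorylation 12 rose and 1 fell (17 and 1 with knockout 1 alone, 9 and 1 with knockout 3 alone), and 3 rose with the 5 libraries alone. With both knockouts fitted together, the higher and lower shares were 26.2% and 4.76% in ribosome biogenesis and 24% and 2% in oxidative phosphorylation. Over all genes tested they were 16.8% and 12%. The Rieske protein Uqcrfs1 rose from 52.0, 53.1 and 57.1 FPKM to 83.7 and 78.0 FPKM (limma adjusted p = 0.000229). Of 30 genes of the unfolded protein response and chaperones 12 rose (7 with knockout 1 alone, 15 with knockout 3 alone, where 1 fell, and 5 with the 5 libraries alone), such as Manf, from 22.2, 21.5 and 21.4 FPKM to 31.7 and 32.7 FPKM (limma adjusted p = 0.000277). None of the 13 mitochondrially encoded genes passed by limma, and none had an unadjusted p under 0.05. In knockout 1 alone 11 of them fell, with a median of -0.63 against 0.08 in knockout 3. One of them, mt-Nd4l, measured 600.0, 837 and 646 FPKM in wild type, 383 in knockout 1 and 698 in knockout 3.

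Of 41 mRNA decay factors 9 fell and 1 rose, and of 32 SR proteins and hnRNPs 9 fell and 1 rose, with medians of -0.10 and -0.11. The lower shares were 21.95% and 28.12%, against 12% of all genes tested, and the higher shares 2.439% and 3.125%, against 16.8%. For the decay factors, 1 fell and 2 rose with knockout 1 alone, against 10 lower and 1 higher with knockout 3 alone. For the SR proteins and hnRNPs these counts were 4 lower and 1 higher with knockout 1 and 3 lower and 1 higher with knockout 3. With the 5 libraries alone 1 decay factor rose and no gene of either list fell. Among 24 cleavage and polyadenylation factors 6 rose and 4 fell (4 and 3 with knockout 1 alone, 4 and 2 with knockout 3 alone), and 1 rose with the 5 libraries alone. The 6 and 4 genes were 25% and 16.7% of the list, against 16.8% and 12% of all genes tested. Clp1, which bridges cleavage complexes, rose from 10.5, 10.6 and 12.2 FPKM to 20.2 and 22.3 FPKM (limma adjusted p = 0.000131). Nudt21, the cleavage factor deleted in the other knockout of the series, did not pass, with 17.0, 18.1 and 19.2 FPKM in wild type against 17.8 and 17.2 FPKM in the knockouts (limma adjusted p = 0.63).

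Effector and cell cycle genes rested more on knockout 3. Of 35 effector and memory T cell genes 28 could be tested, of which 13 rose, with a median difference of 0.33 in knockout 1 and 2.42 in knockout 3. With knockout 1 alone 9 rose and 2 fell, and with knockout 3 alone 23 rose, against 3 with the 5 libraries alone. Granzyme B (Gzmb) measured 0.272, 0.157 and 0.192 FPKM in wild type, 6.78 in knockout 1 and 33.6 in knockout 3 (limma adjusted p = 0.000849). Gzmb is also on the list of CD8, NK and gamma-delta markers, which summed to 93.1 FPKM in knockout 1 and 356 FPKM in knockout 3. These sums therefore include Gzmb itself, and Gzma, Prf1 and Eomes are on both lists too. Prdm1, the factor Blimp-1 of effector differentiation, was more alike in both, with 1.10, 1.33 and 1.72 FPKM in wild type against 3.74 and 5.28 FPKM in the knockouts (limma adjusted p = 0.000633). Of 50 cell cycle genes 23 rose, with medians of 0.14 in knockout 1 and 1.19 in knockout 3. With knockout 1 alone 15 rose and 2 fell, with knockout 3 alone 42 rose and 1 fell, and with the 5 libraries alone 1 rose. E2f2, which restrains entry into the cell cycle in resting T cells, rose from 5.77, 6.43 and 5.39 FPKM to 16.4 and 19.2 FPKM (change 1.46, SE 0.08, limma adjusted p = 2.04e-05).

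Genes that mark the naive, quiescent state showed no common direction. Of 32 tested 6 rose and 7 fell, with medians of 0.17 in knockout 1 and 0.00297 in knockout 3. These were 18.75% and 21.88% of the list, against 16.8% and 12% of all genes tested, so the higher share was near that of all genes. Knockout 1 alone gave 7 higher and 2 lower, and knockout 3 alone 5 higher and 10 lower. Fitted on the 5 libraries alone, 3 rose and 1 fell. Dusp10, a phosphatase that restrains stress kinases, rose from 40.8, 37.6 and 36.6 FPKM to 73.5 and 98.3 FPKM (limma adjusted p = 0.000191). Gimap7, of a GTPase family that supports lymphocyte survival, rose from 20.1, 24.7 and 21.6 FPKM to 51.4 and 53.6 FPKM (limma adjusted p = 0.00091), and the costimulator Cd27 fell from 186, 201 and 193 FPKM to 143 and 129 FPKM (limma adjusted p = 0.00273, and 0.0505 with library weights). Of the 9 naive CD4 T cell markers 2 fell. One was Cd4, at 224, 243 and 232 FPKM in wild type against 192 and 171 FPKM in the knockouts (limma adjusted p = 0.00472, and 0.0652 with the 5 libraries alone), which was named after its values were seen.

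**Figure D5:**
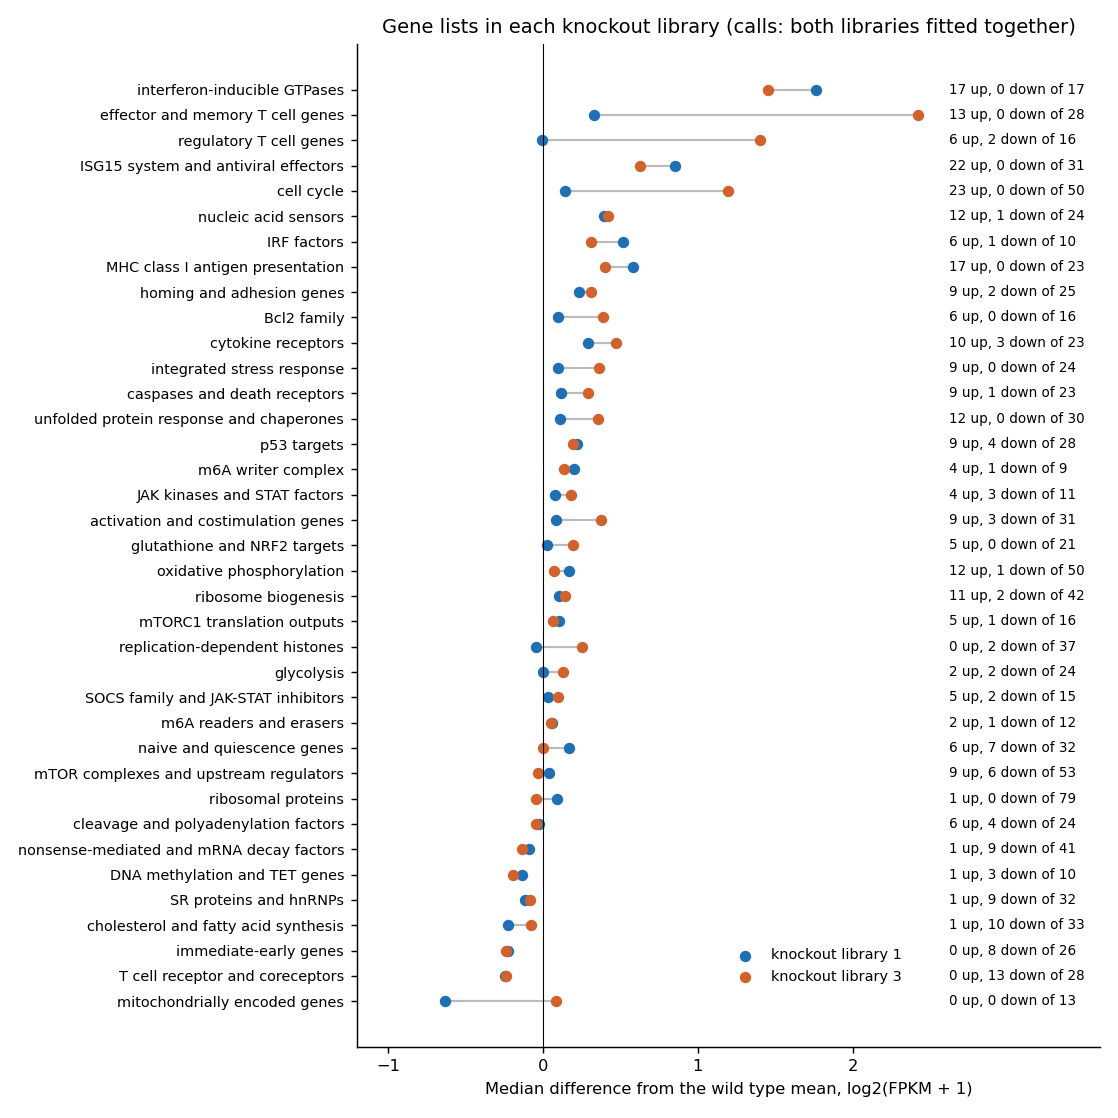
Median difference from the wild type mean of the members of each gene list (log2(FPKM + 1) scale), 1 point for knockout 1 and 1 for knockout 3, with the number of genes higher and lower beside each list. Interferon-inducible GTPases lie far to the right in both libraries (1.76 and 1.46), effector genes lie to the right mainly in knockout 3 (0.33 and 2.42), and the T cell receptor list lies to the left in both (-0.25 and -0.24).

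Whether a change was particular to the loss of Mettl3 was tested against the loss of Nudt21, a subunit of cleavage factor Im, for which the series holds 2 wild type and 2 knockout libraries of its own at 0 h. The Mettl3 change exceeded the Nudt21 change at 2233 genes and was below it at 931 genes (limma adjusted p under 0.05), 17.8% and 7.44% of 12511. Markers of other cells differed between the groups of the Nudt21 set as well. B cell and plasma cell markers summed to 794 and 627 FPKM in its wild type and to 1230.0 and 1756 FPKM without Nudt21. CD8, NK and gamma-delta markers summed to 69.0 and 59.1 against 200 and 174 FPKM. Monocyte, macrophage and dendritic cell markers summed to 228 and 185 against 399 and 468 FPKM, and neutrophil and granulocyte markers to 90.4 and 33.8 against 212 and 294 FPKM. Their part in the comparison of both knockouts was not tested. The 2233 and 931 genes became 1326 and 1520 with median-ratio scaling. For Socs1 no difference between the knockouts was detected. It rose by 1.16 without Mettl3 and by 1.15 without Nudt21, where it went from 19.2 and 20.2 FPKM to 45.1 and 44.8 FPKM (difference 0.01, SE 0.14, limma adjusted p = 0.97). Cish rose more without Mettl3, by 0.73 (SE 0.16, limma adjusted p = 0.0095). Iigp1 differed by 2.47, with a limma adjusted p of 0.055.

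Other interferon-inducible genes did differ. Gbp2 measured 33.1 and 33.2 FPKM in the wild type of the Nudt21 set and 40.8 and 32.6 FPKM without Nudt21, and its Mettl3 change was larger by 2.0 (limma adjusted p = 0.0024). Ube2l6 rose in the Nudt21 set from 1.45 and 1.76 FPKM to 5.22 and 4.09 FPKM, less than without Mettl3 by 2.55 (limma adjusted p = 0.0027). In the GTPase list 8 of 17 genes had a larger Mettl3 change, and in the ISG15 and antiviral list 10 of 31 had a larger and 2 a smaller one. Ms4a4c, a membrane protein of T cells, rose from 4.79, 6.50 and 16.4 FPKM to 57.4 and 50.2 FPKM without Mettl3 and measured 8.43 and 8.95 against 8.71 and 8.35 FPKM in the Nudt21 set (difference 2.61, limma adjusted p = 0.0078).

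Some genes moved in opposite directions. Tstd1 rose without Mettl3 and went from 2.64 and 3.08 FPKM to 1.2 and 1.07 FPKM without Nudt21, a fall with a limma adjusted p of 0.00204 (difference 2.91, limma adjusted p = 7.2e-05). Carns1, carnosine synthase, rose from 23, 26.2 and 19.4 FPKM to 54.6 and 38.3 FPKM without Mettl3 and went from 19.9 and 21.3 FPKM to 4.39 and 5.16 FPKM without Nudt21, a fall with a limma adjusted p of 0.000349 (difference 2.89, limma adjusted p = 0.00035). Id3, an inhibitor of E proteins, fell from 24.7, 27.7 and 28.1 FPKM to 11.2 and 15 FPKM without Mettl3 and went from 27.7 and 28.5 FPKM to 48.6 and 49.8 FPKM without Nudt21, a rise with a limma adjusted p of 0.00448 (difference -1.78, limma adjusted p = 0.0007). In the T cell receptor list 15 of 28 genes had a lower change without Mettl3 than without Nudt21 and none a higher one by limma. In the immediate-early list 10 of 26 did. The sterol synthesis list had a median of -0.43 without Nudt21 and of -0.14 without Mettl3. Srebf2 fell by 0.54 without Nudt21 (limma adjusted p = 0.00167) and by 0.66 without Mettl3, with no difference detected between these changes (-0.12, SE 0.11, limma adjusted p = 0.43).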

How the data were processed

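RNA sequencing of naive CD4+ T cells gave 12 libraries in 5 groups, placed by title. The groups were Mettl3 wild type and knockout at 0 h, Mettl3 wild type at 48 h, and Nudt21 wild type and knockout at 0 h. The authors deposited FPKM per gene for 32285 genes. The submitters' processing notes name Bowtie and mm10, with neither version nor role. The annotation, the counting tool and its strand setting are not given in the sources used here. The table holds no counts, so depth is unknown and no counting interval is given.

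A gene was kept if it reached 1 FPKM in 2 or more libraries (12511 genes). Values were taken as log2(FPKM + 1), so that changes of low genes are understated. A model of 5 groups over 12 libraries was fitted with limma 3.58.1 (R 4.3.3, moderated with a trend, 7 residual degrees of freedom, Benjamini-Hochberg over all genes kept, threshold 0.05). A lone knockout library is assumed to vary like the other groups. Scripts were tested on simulated data.

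The comparison, the 44 gene lists and the rule for named genes were chosen with earlier results of these data known. Named genes were a fixed set, the 15 largest changes in each direction (ranked by the smaller of both knockouts' differences, at least 5 FPKM in the higher group), up to 4 genes per list by adjusted p, genes that differ most between knockout 3 and knockout 1, and the 5 genes per direction that differ most from the Nudt21 knockout. The largest changes and the genes that differ most from the Nudt21 knockout had to have both knockouts outside the wild type range. Sex as a covariate was added after seeing the data. Knockout numbers 1 and 3 match wild type numbers 1 and 3, but the labels do not say that they pair. A few genes that the rule takes are counted but not reported here by name.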

Additional observations from a re-analysis of the deposited data

How the results depend on the processing

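The 2103 higher and 1507 lower genes became 535 and 274 with the 5 libraries alone and 748 and 346 with library weights, and 2537 genes were lower after quantile scaling. Leaving out 1 library at a time gave 1533 to 3054 higher and 1043 to 1674 lower genes. With the replicate number as a block, 1592 were higher and 1136 lower, and the labels do not say that numbers pair. Deviations from the group mean of same-numbered libraries correlated at 0.143 (number 1) and 0.219 (number 3). Knockout 3 gave -0.143 with wild type 1 and -0.117 with wild type 2. With 2 knockout libraries the deviations of one mirror those of the other, so these values are tied and cannot decide whether numbers pair. Without the filter on low values, knockout 1 alone gave 702 lower genes (1071 with it) and knockout 3 alone 4924 higher genes (3054 with it), and quantile scaling gave 3955 lower genes in knockout 3 alone (1674 before). The Mettl3 change exceeded the Nudt21 change at 1072 genes after quantile and 1326 after median-ratio scaling (2233 before) and was below it at 1520 genes after median-ratio scaling (931 before). Leaving out 1 library at a time, Mtor ran from -0.143 (without knockout 1) to 0.0581 (without knockout 3), Mettl14 from -0.0586 to 0.0204 (without wild type 1 and 3, and 0.00214 without wild type 2), and mt-Nd4l from -0.841 (without knockout 3) to 0.0222 (without knockout 1). Mettl14 stood at 0.00186 with library weights. None of these 3 passed the test in the full fit. Among named genes that passed, 71 higher and 23 lower genes did so under every alternative, and 38 and 30 lost the call under at least 1. Depth is unknown, and 2 knockout libraries limit the precision.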
